A study of Mus musculus with 8 samples.

Results

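The genes described here are 10 long non-coding RNA (lncRNA) genes that are known for abundance in the nucleus or for a role in the developing eye and brain: *Malat1*, *Neat1*, *Meg3*, *Rian*, *Mirg*, *Miat*, *Rmst*, *Tug1*, *Six3os1* and *Pantr1*. They were chosen by name, and all 10 were among the 54532 genes counted. RNA-seq compared retinas of 4 *Mettl3*-CKO samples (*Six3-Cre*-positive mice with both *Mettl3* alleles floxed) with retinas of 4 littermate control samples, whose alleles are not spelled out. The sample labels give the age of both groups as postnatal day 7 (p7), and the study's methods give p6. METTL3 is the catalytic subunit of the writer complex for N6-methyladenosine (m6A), the most common internal modification of mRNA, so the comparison asks how the level of each lncRNA differs in a retina whose progenitors lost this enzyme. *Six3-Cre* acts in retinal progenitor cells (RPCs) from the embryo on, and the study showed the loss of METTL3 in the central retina, whereas each library holds the whole retina with its vessels, astrocytes and microglia, cells that do not descend from RPCs. Nothing in the labels says that the 4 samples of a group were separate animals, so the p-values below measure the spread between these samples.

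LncRNAs are transcribed and often spliced and polyadenylated like mRNAs but are not translated into proteins, and many of them stay in the nucleus. *Malat1* RNA gathers in nuclear speckles, bodies rich in splicing factors, and is among the RNAs known to carry m6A. *Neat1*, its neighbour on chromosome 19, is the scaffold on which paraspeckles are built. *Meg3*, *Rian* and *Mirg* are expressed from the maternal copy of the *Dlk1*-*Dio3* imprinted domain, where *Rian* hosts small nucleolar RNAs (snoRNAs) and *Mirg* hosts microRNAs. *Miat*, also known as Gomafu, fills a nuclear compartment of its own in neurons and RPCs, *Rmst* is a neural lncRNA known as a partner of SOX2, and *Tug1* was first described in the retina. *Six3os1* is transcribed from the opposite strand of the eye-field gene *Six3*, and *Pantr1* lies beside the neural homeobox gene *Pou3f3*.

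The members sit at 7 places in the genome (GRCm38). *Malat1* lies at chr19:5795690-5802672 and *Neat1* at chr19:5824708-5845478, both on the minus strand with a gap of 22.0 kb between them. *Meg3* (chr12:109541001-109571726), *Rian* (chr12:109603940-109661716) and *Mirg* (chr12:109729764-109749460) follow each other on the plus strand. *Miat* is at chr5:112213228-112229395, *Rmst* at chr10:92071037-92165170, *Tug1* at chr11:3639785-3649673, *Six3os1* at chr17:85600651-85618398 and *Pantr1* at chr1:42590782-42694842, all on the minus strand. GENCODE vM21 places 13 snoRNA genes inside *Rian*, on its strand. A separate reference set of microRNA hairpins has 14 inside *Mirg*, 3 inside *Rian*, 2 inside *Rmst* and 1 inside *Meg3*, on the strand of each gene. None of either kind was found in this way inside the other 6 genes.

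Because m6A is written mainly at the sequence core GGACT and its close relatives, the exact letters GGACT were searched on the sense strand of the longest annotated transcript of each gene. All 10 members held it, as did 90.8% of the 17339 tested genes with a transcript of at least 500 bases, whose median density was 1.02 sites per kb. *Rmst* had 5 sites in 2891 bases (1.73 per kb) and 16.4% of the tested transcripts were at least as dense. *Six3os1* had 6 sites (1.07 per kb) and *Malat1* had 9 (1.29 per kb), densities that 46.7% and 34.1% of the transcripts reached. The extremes among the members were *Pantr1*, with 7 sites in 2085 bases (3.36 per kb, reached by 1.11% of transcripts), and *Rian*, with 2 sites in 8089 bases (0.247 per kb, reached by 89.7%). A match is a description of the letters and no evidence that the adenosine is methylated. The sites of *Rmst* and *Six3os1* that lie inside one exon, with 10 bases on each side, are shown because these genes differed between the groups, and those of *Rian* because they are the fewest (GRCm38, 5′ to 3′ of the transcript, GGACT in capitals):
*Rmst* site at base 287, chr10:92136572-92136596, minus strand: ctgcccgtggGGACTgagggacctc
*Rmst* site at base 1877, chr10:92083918-92083942, minus strand: caccgaaaatGGACTtggataacat
*Rmst* site at base 2475, chr10:92082148-92082172, minus strand: atgtgacttgGGACTggccttcctg
*Rmst* site at base 2658, chr10:92081965-92081989, minus strand: gaacggaataGGACTctgtatttct
*Six3os1* site at base 553, chr17:85612961-85612985, minus strand: caaacagcctGGACTtttgaatcag
*Six3os1* site at base 711, chr17:85612803-85612827, minus strand: gacgacagtcGGACTaatactcgtc
*Six3os1* site at base 2495, chr17:85611019-85611043, minus strand: agtggttctgGGACTaggcgtaagg
*Six3os1* site at base 4977, chr17:85608537-85608561, minus strand: cctgtgcttcGGACTcggccaaaga
*Six3os1* site at base 5012, chr17:85608502-85608526, minus strand: tggagaggatGGACTccttctgaga
*Rian* site at base 4496, chr12:109650647-109650671, plus strand: gggaagaggaGGACTgatgttggat
*Rian* site at base 6524, chr12:109653434-109653458, plus strand: ctccagtcctGGACTtgccctaagt

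*Miat* is known for copies of TACTAAC, the letters of the intron branch point that the splicing factor SF1 binds. Its longest transcript of 9163 bases held 6 copies on the sense strand (0.655 per kb), whereas 7.95% of the 17339 transcripts held any copy and 0.306% were at least as dense. *Neat1* held 1 copy and the other 8 members none. The 142 bases that hold 3 of the copies show how closely they lie (GRCm38, chr5:112217314-112217455, minus strand, 5′ to 3′ of the transcript, TACTAAC in capitals):
*Miat* repeat: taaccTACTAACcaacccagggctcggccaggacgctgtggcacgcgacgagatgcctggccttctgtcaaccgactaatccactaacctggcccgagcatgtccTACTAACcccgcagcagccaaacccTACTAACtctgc

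Promoter sequences from RefSeq (GRCm38.p6, 250 bases before to 50 after each start) were at hand for 7 of the 10 genes and not for *Neat1*, *Rmst* and *Pantr1*. The promoter of *Six3os1* is shown because this gene was called higher in *Mettl3*-CKO retinas and its promoter lies within the span of *Six3*. It holds 20 CG dinucleotides (in capitals), a number reached by 26.5% of the 32851 promoters in the set, whose median was 7. It holds no TATAAA on either strand, which 13.6% of the promoters do.
*Six3os1* promoter, chr17:85618347-85618646, minus strand: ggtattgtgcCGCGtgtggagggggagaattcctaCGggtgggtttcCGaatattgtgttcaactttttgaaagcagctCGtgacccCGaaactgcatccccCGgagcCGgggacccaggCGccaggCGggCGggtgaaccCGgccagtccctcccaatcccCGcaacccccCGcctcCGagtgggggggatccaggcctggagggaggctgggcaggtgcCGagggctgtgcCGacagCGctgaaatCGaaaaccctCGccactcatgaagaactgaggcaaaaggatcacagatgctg

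The 8 libraries held 16227095 to 20281517 counts, and 3 counts, taken as the floor of detection, came to between 0.148 and 0.185 CPM, the count of a gene scaled by the total of its library. *Mettl3* itself averaged 24.1 ± 3.97 CPM in the mutant and 31.2 ± 2.24 CPM in the control group (SD, n = 4 each), and 1 *Mettl3*-CKO value lay within the control range (adjusted p = 0.0602, edgeR). *Mettl3* was called lower by DESeq2 (adjusted p = 0.0333) and by limma's voom with library weights (adjusted p = 0.0139). It was also called lower without *Mettl3*-CKO replicate 2 (edgeR adjusted p = 0.0185), and in none of the other fits. A pair of control libraries stood apart. Control replicate 4 held 3359 CPM of lens genes against 10.05 to 74.8 CPM in the other 7 libraries. Control replicate 1 had the lowest share of counts on lncRNA genes (1.45%, against 1.82% to 2.62% elsewhere) and the highest share on mitochondrial genes (2.38%, against 1.69% to 2.26% elsewhere). The lncRNA *Xist*, which is expressed in female cells, stood at 3736 CPM in *Mettl3*-CKO replicate 4 and 3672 CPM in control replicate 4 and under 2 CPM in the other 6 libraries. The labels give no sex. Without *Xist*, the share of lncRNA genes was 1.82% to 2.25% in the 7 libraries other than control replicate 1. Where leaving out either control changes a call or moves a log2 fold change of a member by over 1.5 times, the value without it is given below or, as a range, in the closing section. Values listed for single libraries follow the order of replicates 1 to 4.

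The members spanned over 3 orders of magnitude in level. In FPKM, a level scaled to library total and gene length that was computed here from the counts, *Malat1* averaged 553 ± 241 (SD, n = 4) in controls and ranked 18th of all genes, and *Miat* averaged 204 ± 70.7 and ranked 122nd. *Meg3* followed at 66.7 ± 7.38 FPKM, *Six3os1* at 30.5 ± 5.18, *Rian* at 16.4 ± 1.95 and *Tug1* at 15.3 ± 1.11. The low end was held by *Rmst* at 2.46 ± 0.337 FPKM, *Mirg* at 1.39 ± 0.151, *Neat1* at 0.368 ± 0.120 and *Pantr1* at 0.250 ± 0.0650. *Rian* and *Tug1* overlapped in the controls, and so did *Neat1* and *Pantr1*. The ranges of *Malat1* and *Miat* overlapped through control replicate 1, although *Malat1* was above *Miat* inside every library. *Neat1*, although its RNA is as long as 20.8 kb, reached a far lower level per kilobase in the p7 retina than its neighbour *Malat1*.

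Of the 10 lncRNA genes, 2 passed the test as upregulated by *Mettl3* loss and 0 as downregulated (quasi-likelihood test of edgeR, adjusted p under 0.05 by the Benjamini-Hochberg method over the 17998 genes that passed its filter on low counts). All 10 passed that filter. The background was 6.49% of all tested genes called higher and 4.05% called lower, and with 10 genes the counts are too small to be told from it. The genes called were *Rmst* and *Six3os1*. They were also the only members whose *Mettl3*-CKO values all lay above all control values, a pattern that 9.77% of all tested genes showed. The median log2 fold change of the 10 genes was -0.05, beside -0.01 over all genes tested. Among all 1806 tested genes of lncRNA biotypes, 51 (2.82%) were called higher and 58 (3.21%) lower. Of the 16192 tested genes of other biotypes, 6.90% were called higher and 4.14% lower. The median log2 fold changes were -0.088 and -0.0052. Only 477 lncRNA genes had a mean log2 CPM of at least 2, against 11966 protein-coding genes. A change is harder to call at a low level, and the percentages were not compared at equal level. In RNA from whole retinas, a difference in the number of cells that make an RNA and a difference in its amount per cell cannot be told apart.

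**Figure D1:**
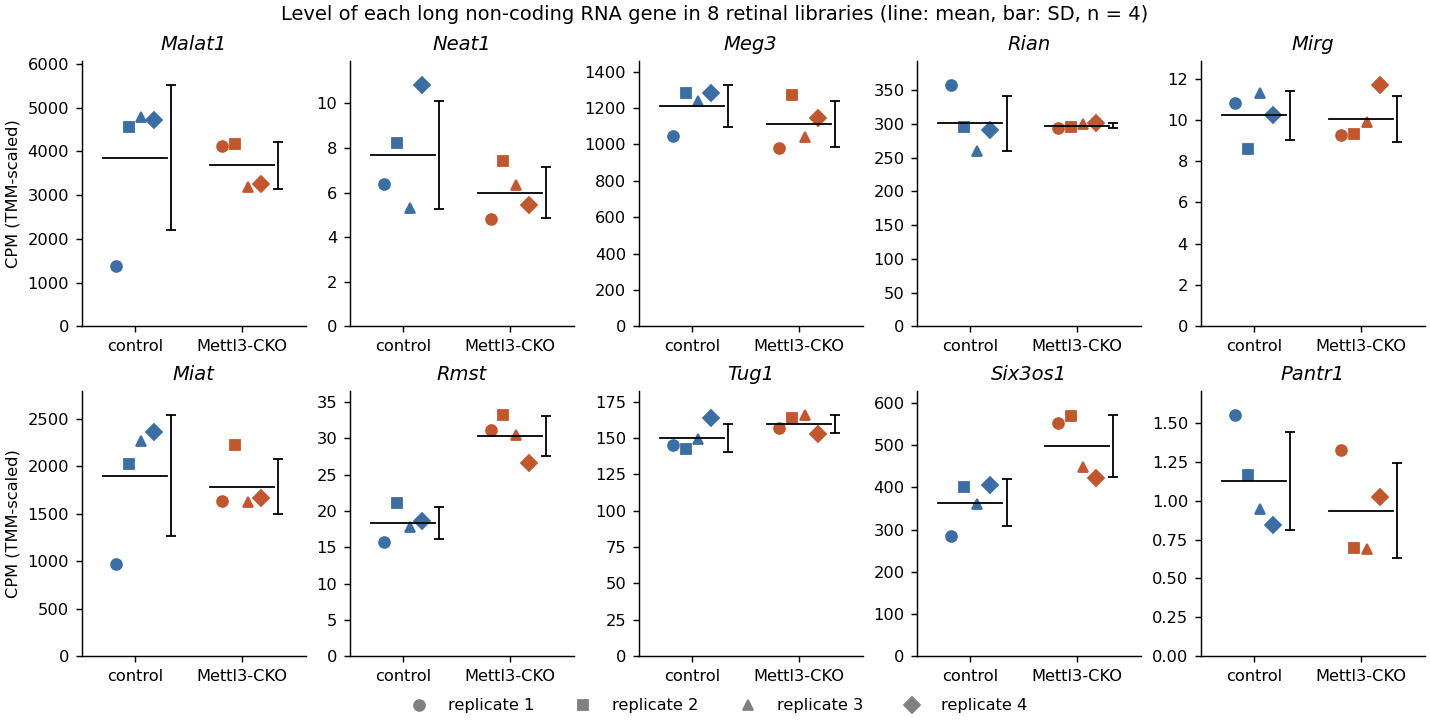
Level of each of the 10 lncRNA genes in TMM-scaled CPM (y axis, starting at 0) in 4 control (blue) and 4 *Mettl3*-CKO (orange) libraries, with the marker shape giving the replicate number, a line at the mean and a bar of 1 SD. The groups are separate for *Rmst* and *Six3os1*, and control replicate 1 lies far below the other controls for *Malat1* and *Miat*.

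*Rmst*, the SOX2-partnering lncRNA of neural progenitors and neurons, was the member with the largest log2 fold change. Its levels were 31.1, 33.2, 30.4 and 26.5 CPM (TMM-scaled, as all CPM of single genes here) over the *Mettl3*-CKO libraries and 15.7, 21.1, 17.7 and 18.7 CPM over the control libraries. Every *Mettl3*-CKO library was above every control, and the gap between the closest pair, *Mettl3*-CKO replicate 4 and control replicate 2, was wider than the SD of either group. The means were 30.3 ± 2.80 and 18.3 ± 2.24 CPM (SD, n = 4 each), a rise of 1.66-fold (log2 fold change 0.73, standard error 0.11, adjusted p = 0.00224 by edgeR). *Rmst* was called in all 8 fits that each left out 1 library, with log2 fold changes between 0.66 and 0.80, and in all 6 fits with another tool, scaling, filter or block. Its counts, 294 to 573 per library, are few beside those of *Malat1*. On the opposite strand the predicted gene *Gm26700* overlaps its exons.

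*Six3os1*, the opposite-strand partner of *Six3*, rose less and was closer to the threshold. It stood at 553, 569, 448 and 421 CPM over the *Mettl3*-CKO libraries and at 285, 402, 362 and 406 CPM over the control libraries. The groups did not overlap, yet the lowest *Mettl3*-CKO library, replicate 4, was only just above the highest control, also replicate 4. These are the libraries with *Xist*, and a part of sex in these levels was not tested. The means were 498 ± 74.1 and 364 ± 56.0 CPM (SD, n = 4 each), 1.37-fold higher in *Mettl3*-CKO retinas (log2 fold change 0.45, standard error 0.13, adjusted p = 0.0429 by edgeR). The call was kept in 2 of the 8 fits that left out 1 library, those without *Mettl3*-CKO replicate 4 (adjusted p = 0.0335) or without control replicate 1 (0.0284). It was lost without *Mettl3*-CKO replicate 1, 2 or 3 (edgeR adjusted p = 0.152, 0.111 and 0.0614) and without control replicate 2, 3 or 4 (0.0664, 0.0931 and 0.0514), with a log2 fold change between 0.35 and 0.53 in all 8 fits.

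*Six3*, the homeobox gene that shares 4.79 kb with *Six3os1* on the other strand, did not pass the test. Its means were 224 ± 37.2 CPM with and 205 ± 31.9 CPM without *Mettl3* loss (SD, n = 4 each), a log2 fold change of 0.13 (standard error 0.13, edgeR adjusted p = 0.617). Within a library, the log2 ratio of *Six3os1* to *Six3* in FPKM was 0.03, -0.01, 0.13 and -0.02 over the *Mettl3*-CKO libraries and -0.27, -0.27, -0.45 and -0.20 over the control libraries. The ratio was thus near equality in every *Mettl3*-CKO library and below it in every control, with no overlap. The means differed by 0.33 (p = 0.0286 by a two-sided exact permutation test, which cannot go lower with 4 libraries a group), and adjustment over the 5 ratios tested gave 0.143. The library kit does not mark strand and the strand setting of the counting is not given in the sources used here, so reads from exons that *Six3os1* and *Six3* share cannot be told apart.

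Markers of cycling progenitors and of rods also differed between the groups in which *Rmst* and *Six3os1* differed. Of 10 genes of cycling progenitors, 3 were called higher, among them the proliferation marker *Mki67* (log2 fold change 0.98) and the RPC growth factor *Fgf15* (1.08), and the summed level of the list was 1778 to 2430 CPM in the mutant against 1263 to 1679 CPM in the control libraries. Of 12 rod genes, 8 were called lower, and their summed level was 1701 to 3152 CPM against 3235 to 4868 CPM. Neither range overlapped between the groups. The part of these differences in the levels of *Rmst* and *Six3os1* was not tested. Of the Müller glial list 1 of 9 was higher (*Glul*) and 1 lower (*Rlbp1*), of the cone list 2 of 9 were lower, of the amacrine list 1 of 11 was lower and of the ganglion cell list 1 of 10 was higher. Of cells not derived from RPCs, 7 of 9 vascular, 2 of 3 haemoglobin and red cell, 2 of 5 astrocyte and 0 of 8 microglial genes tested were called lower and none higher. The summed astrocyte list was at 54.5 to 84.3 CPM in the mutant and 94.8 to 208 CPM in the control libraries and the red cell list at 4.34 to 7.30 against 14.1 to 26.4 CPM, while the vascular sum, 541 to 646 against 545 to 657 CPM, was mostly *Kdr*, which was not called. Of 9 lens genes 5 were called lower, through control replicate 4.

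**Figure D2:**
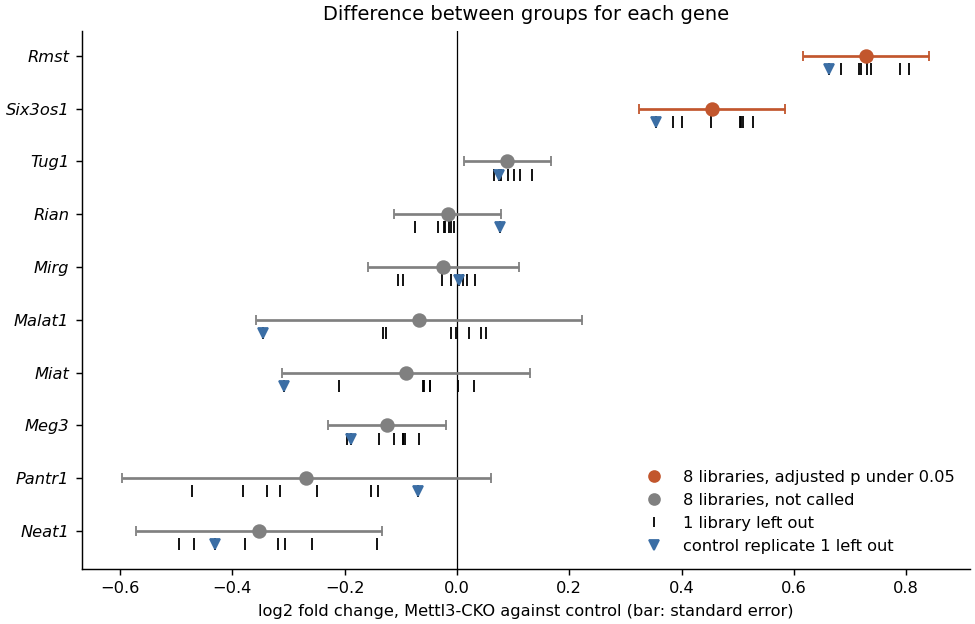
Log2 fold change of each lncRNA gene, *Mettl3*-CKO against control (x axis), with a bar of 1 standard error, from all 8 libraries (circles, orange where the adjusted p-value was under 0.05) and from the 8 fits that each left out 1 library (ticks, with a triangle for the fit without control replicate 1). The ticks of *Rmst* stay between 0.66 and 0.80, whereas *Malat1* moves from -0.07 to -0.35 without control replicate 1.

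*Malat1*, the speckle lncRNA and by counts the 3rd gene of the control retina, did not pass the test, and its comparison turned on 1 library. It was at 4127, 4177, 3181 and 3246 CPM over the *Mettl3*-CKO libraries and at 1382, 4560, 4778 and 4714 CPM over the control libraries. Control replicate 1 was the lowest of all 8 libraries, and the other controls were all above all *Mettl3*-CKO libraries. With all libraries the log2 fold change was -0.07 (standard error 0.29, edgeR adjusted p = 0.922). Without control replicate 1 it was -0.35 (adjusted p = 0.0316), which makes *Malat1* a downregulated gene in that 1 of the 8 fits. When limma's voom weighted the libraries by their quality in place of leaving any out, it was -0.32 and not called (adjusted p = 0.172).

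*Miat*, the Gomafu lncRNA of the TACTAAC repeats, followed the same libraries. Its levels were 1628, 2217, 1627 and 1666 CPM over the *Mettl3*-CKO libraries and 966, 2019, 2259 and 2357 CPM over the control libraries. Control replicate 1 was again the lowest library, and *Mettl3*-CKO replicate 2 was within the range of the other controls. The log2 fold change was -0.09 (standard error 0.22, edgeR adjusted p = 0.853), and without control replicate 1 it was -0.31 and still not called (adjusted p = 0.0643).

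Other lncRNA genes also tended to be lower in control replicate 1. That library was set against the mean of the other 3 controls for the 12904 genes with a mean log2 CPM of at least 2 over all 8 libraries. *Malat1* was the 13th lowest and *Miat* the 86th lowest, with log2 differences of -1.76 and -1.19. *Six3os1* differed by -0.45, *Neat1*, *Meg3* and *Rmst* each by -0.28, *Tug1* by -0.06, *Mirg* by 0.12 and *Rian* by 0.34. The 477 lncRNA genes at this level had a median difference of -0.17, and 63.7% of them were below 0. The 11966 protein-coding genes had a median of 0.07, and 42.5% of them were below 0. Control replicate 4 deviated about as far the other way, with a median of 0.15 over the lncRNA genes (26.4% below 0) and of -0.03 over the protein-coding genes, and it is part of the mean against which replicate 1 was set. Control replicate 1 also had the highest summed level of the rod list (4868 CPM) and of the astrocyte list (208 CPM, 94.8 to 120 in the other controls) and the lowest of the cycling progenitor list (1263 CPM). The part of its mitochondrial share and of these marker levels in its low *Malat1* and *Miat* was not tested.

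**Figure D3:**
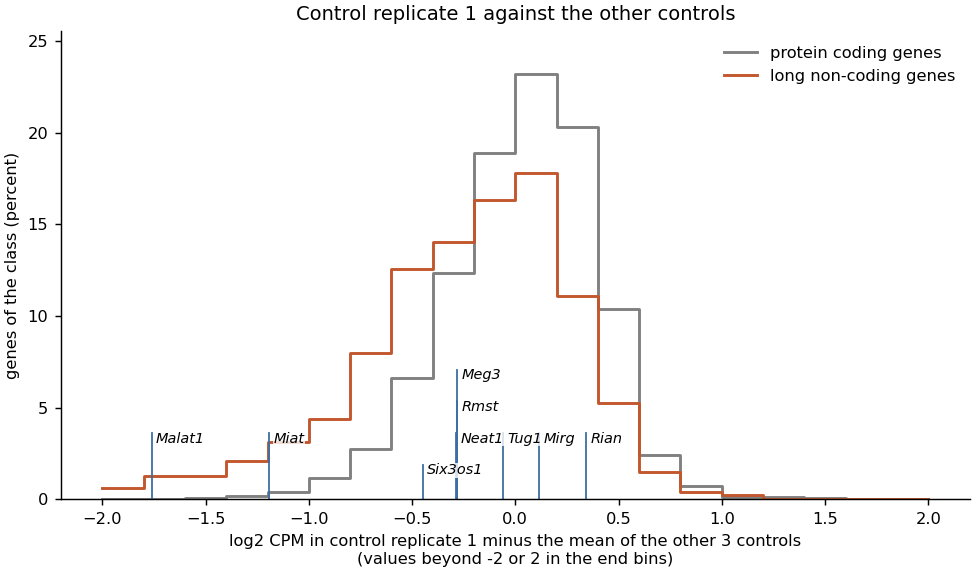
Distribution of the difference in log2 CPM between control replicate 1 and the mean of the other 3 controls (x axis), as the percentage of genes per bin (y axis), for 11966 protein-coding (grey) and 477 lncRNA genes (orange), with the lncRNA genes of this report marked except *Pantr1*, which was below the level limit. The lncRNA curve is shifted to the left, and *Malat1* (-1.76) and *Miat* (-1.19) lie in its left tail.

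The 10 genes together took 0.784%, 0.872%, 0.675% and 0.704% of all counts over the *Mettl3*-CKO libraries and 0.408%, 0.879%, 0.906% and 0.931% over the control libraries. Apart from control replicate 1, the control shares were all above the *Mettl3*-CKO shares. The means were 0.759% ± 0.0884 and 0.781% ± 0.250 (SD, n = 4 each; two-sided exact permutation test, p = 0.914). Without control replicate 1 the difference was -0.147 percentage points (exact permutation test, p = 0.0571). *Malat1* alone made up 0.134% to 0.477% of a library.

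The 3 lncRNAs of the imprinted domain stayed close together. *Meg3*, the most abundant of them, was at 983, 1272, 1042 and 1146 CPM over the *Mettl3*-CKO libraries and at 1043, 1280, 1236 and 1284 CPM over the control libraries, so that the groups overlapped (log2 fold change -0.12, standard error 0.10, edgeR adjusted p = 0.515). *Rian*, the snoRNA host, was at 294, 295, 300 and 301 CPM against 357, 295, 260 and 290 CPM, with nearly the same mean (log2 fold change -0.02, standard error 0.10, edgeR adjusted p = 0.942). The control values were spread more widely, with control replicate 1 the highest and control replicate 3 the lowest. The spreads were not compared by a test. *Mirg*, the microRNA host, was at 9.29, 9.34, 9.88 and 11.7 CPM against 10.8, 8.57, 11.3 and 10.2 CPM, again with overlap (log2 fold change -0.02, standard error 0.13, edgeR adjusted p = 0.940). The proportions among the 3 RNAs did not differ beyond the spread either. The log2 FPKM ratio of *Rian* to *Meg3* was -1.91 ± 0.164 in *Mettl3*-CKO retinas and -2.02 ± 0.317 in controls (SD, n = 4 each; exact permutation test, p = 0.514), and that of *Mirg* to *Meg3* was -5.48 ± 0.208 and -5.58 ± 0.270 (p = 0.543, exact permutation test). Without control replicate 1 the differences were 0.28 and 0.20 (p = 0.0571 and p = 0.257, exact permutation tests). These 2 ratios share their denominator.

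Of the protein-coding genes of the domain, among which *Dlk1*, *Rtl1* and *Dio3* are expressed from the paternal copy, 1 was called lower and 1 higher. *Dlk1*, a Notch-related inhibitor of differentiation, starts 88.2 kb before the start of *Meg3*. It was at 1.22, 0.81, 1.17 and 2.49 CPM over the *Mettl3*-CKO libraries and at 6.05, 4.65, 4.62 and 2.96 CPM over the control libraries. All *Mettl3*-CKO libraries were below all controls, and the closest pair was replicate 4 of each group, the libraries with *Xist*. The log2 fold change was -1.67 (standard error 0.32, edgeR adjusted p = 0.00758). *Dlk1* was called whichever of the 8 libraries was left out. *Dio3*, the thyroid hormone deiodinase at the other end, 738 kb after the start of *Meg3*, was at 5.86, 5.91, 4.52 and 3.13 CPM against 0.91, 2.20, 2.36 and 3.50 CPM. Its groups overlapped through replicate 4 of each, the libraries with *Xist*, and it was called higher (log2 fold change 1.11, standard error 0.33, edgeR adjusted p = 0.0481). The *Dio3* call was lost without *Mettl3*-CKO replicate 1, 2 or 3 or control replicate 2 or 3 (edgeR adjusted p between 0.0937 and 0.166), and also with the replicate number as a block (0.0872) and with median-ratio (0.0504) or total-count scaling (0.0532). *Rtl1*, the retrotransposon-derived gene antisense to the maternal transcripts, did not pass the test (log2 fold change -0.02, standard error 0.29), nor did *Begain* (0.08, standard error 0.10). All of these except *Begain* were at a few CPM. Whether *Dlk1* and *Dio3* differed from the lncRNA genes of the domain in their change was not tested.

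**Figure D4:**
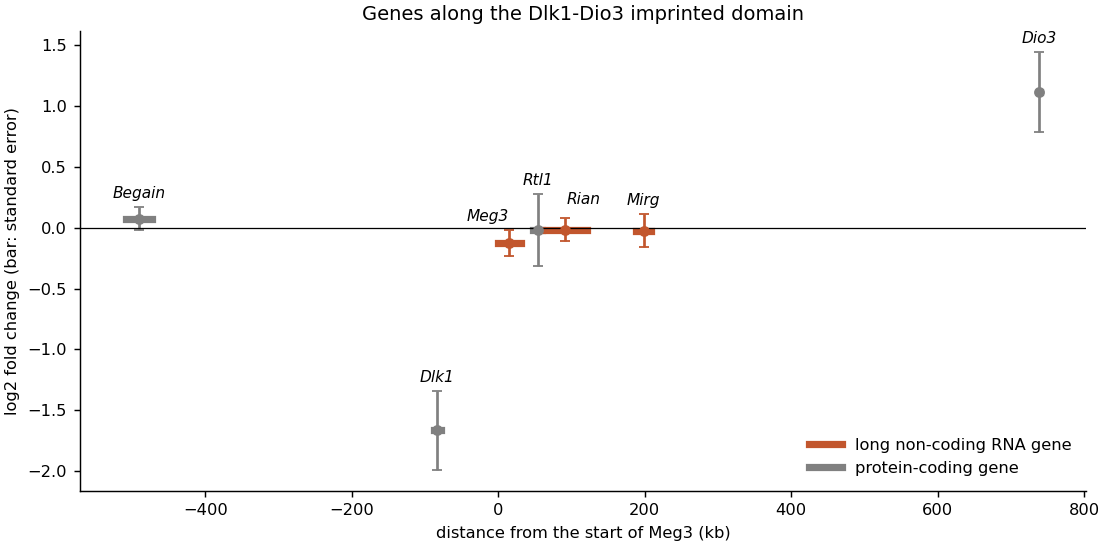
Log2 fold change, *Mettl3*-CKO against control, with a bar of 1 standard error (y axis), of the tested genes listed for the *Dlk1*-*Dio3* domain against their distance from the start of *Meg3* in kb (x axis, thick segments spanning each gene, drawn to scale). The lncRNA genes (orange) lie near 0, with *Dlk1* at -1.67 and *Dio3* at 1.11 on either side of them.

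*Tug1*, the lncRNA first described in the retina, was the least variable of the abundant members within the controls relative to its mean. It was at 157, 164, 166 and 153 CPM over the *Mettl3*-CKO libraries and at 145, 142, 149 and 164 CPM over the control libraries. The groups overlapped through control replicate 4, and the log2 fold change was 0.09 (standard error 0.08, edgeR adjusted p = 0.526). The start of *Tug1* overlaps the first exon of *Morc2a* on the other strand, whose own log2 fold change was -0.07 (standard error 0.11).

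*Neat1* and *Pantr1* were measured with few reads. *Neat1*, the paraspeckle scaffold, was at 4.81, 7.42, 6.32 and 5.42 CPM over the *Mettl3*-CKO libraries and at 6.37, 8.20, 5.30 and 10.8 CPM over the control libraries, with 87 to 179 counts per library. The ranges overlapped, with a log2 fold change of -0.35 (standard error 0.22, edgeR adjusted p = 0.357), which was -0.14 without control replicate 4. *Pantr1* was at 1.33, 0.70, 0.69 and 1.03 CPM against 1.55, 1.16, 0.94 and 0.85 CPM, from 12 to 29 counts per library (log2 fold change -0.27, standard error 0.33, edgeR adjusted p = 0.676), and without control replicate 1 the log2 fold change was -0.069. The standard errors of both genes were larger than that of *Six3os1* (0.13), so a change of that size was harder to detect. The same holds for the abundant *Malat1* (0.29) and *Miat* (0.22). The log2 FPKM ratio of *Neat1* to *Malat1* was -10.8 ± 0.333 in *Mettl3*-CKO retinas and -10.4 ± 0.856 in controls (SD, n = 4 each; exact permutation test, p = 0.429), a difference of -0.40 that was -0.036 without control replicate 1 and -0.72 without control replicate 3. That of *Pantr1* to *Pou3f3*, 925 bases away, was -3.26 ± 0.670 and -3.02 ± 0.392 (p = 0.600, exact permutation test).

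**Figure D5:**
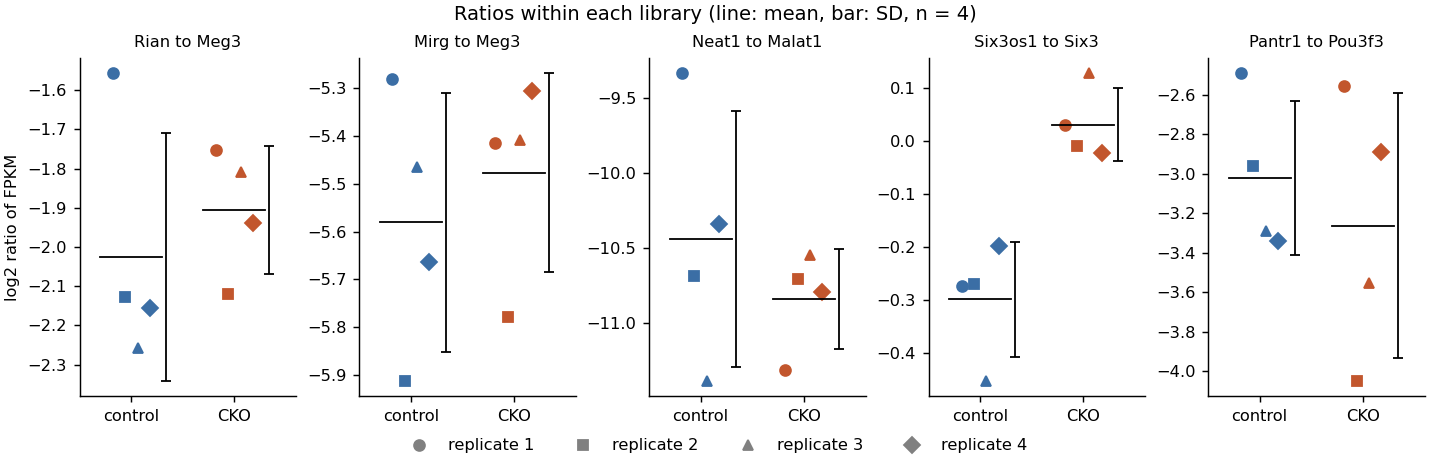
Log2 ratio of the FPKM of a lncRNA gene to that of a neighbouring gene within each library (y axis, a scale of its own in each panel), for 4 control (blue) and 4 *Mettl3*-CKO (orange) libraries, with marker shapes giving the replicate number, a line at the mean and a bar of 1 SD. Of the 5 ratios, only that of *Six3os1* to *Six3* separates the groups (0.03 ± 0.07 against -0.30 ± 0.11).

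Of 17 genes listed as neighbours of the members, those of the imprinted domain and *Six3* included, 1 was called higher (*Dio3*) and 3 lower (*Dlk1*, *Six2* and *Crybb1*). *Six2*, another homeobox gene beside *Six3os1*, averaged 2.13 ± 0.515 CPM after *Mettl3* loss and 3.67 ± 0.798 CPM without it, and the groups did not overlap (SD, n = 4 each; log2 fold change -0.79, standard error 0.23, edgeR adjusted p = 0.0495). The crystallin genes *Crybb1* and *Cryba4*, which lie beside *Miat*, followed the lens content of control replicate 4, at 415 and 155 CPM there and at 9.84 CPM or less in all other libraries. Apart from *Cryba4* and the barely expressed *Slc25a45* (log2 fold change 0.83, standard error 0.41), neighbours that were not called had log2 fold changes between -0.12 and 0.18.

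Among 40 other genes listed by name as non-coding, 28 were tested, of which 2 were called higher and 2 lower. The tested genes include *Snhg11* and *Crxos*, which the annotation labels protein-coding and which were not called. *Mir17hg*, the host of the miR-17-92 microRNA cluster, averaged 53.7 ± 3.84 CPM against 36.7 ± 1.87 CPM in the controls (SD, n = 4 each; log2 fold change 0.55, edgeR adjusted p = 0.00234), and the snoRNA host *Snhg1* was at 49.2 ± 4.62 and 39.8 ± 1.84 CPM (0.30, edgeR adjusted p = 0.04996). *Mir9-3hg*, a host of miR-9, was at 16.1 ± 1.84 and 25.3 ± 4.64 CPM (-0.64, edgeR adjusted p = 0.0132), and the imprinted *Peg13* was at 139 ± 14.8 and 181 ± 12.7 CPM (-0.39, edgeR adjusted p = 0.0207). None of these 4 genes overlapped between the groups. That pattern was not limited to called genes. Of the 28 tested, 6 lay wholly above the controls, beside 9.77% of all tested genes. Another 2 lay wholly below, for which no share over all genes was computed. Over all tested genes, 6.49% were called higher and 4.05% lower, and the counts here are too small to be told from these shares. Of the protein partners of these RNAs, 0 of 16 paraspeckle genes were called in either direction, with *Nono* at -0.07 and *Sfpq* at 0.02 on the log2 scale. Of 15 nuclear speckle genes 1 was called higher, the speckle core gene *Son* (2041 ± 55.8 against 1596 ± 72.1 CPM, SD, n = 4 each; log2 fold change 0.36, edgeR adjusted p = 0.0159). Of 18 nuclear RNA decay and processing genes 1 was called higher, *Mettl16*, another m6A methyltransferase, known to bind the 3′ triple helix of *MALAT1* (52.7 ± 5.53 against 39.2 ± 1.40 CPM, SD, n = 4 each; log2 fold change 0.43, edgeR adjusted p = 0.0126).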

How the data were processed

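Retinal RNA of 4 *Mettl3*-CKO and 4 control samples was sequenced by the authors, 1 library per sample, grouped here by the genotype label. According to the methods, TRIzol RNA was made into NEBNext Ultra libraries, a kit that does not mark strand, and paired reads were filtered, mapped to GRCm38 with Hisat2 and counted per gene with featureCounts. The submitters' processing notes also name CASAVA. The deposited values are raw counts per gene for 54532 genes. Whether polyadenylated RNA was selected, the annotation release and the strand setting are not given in the sources used here, so reads where a gene overlaps another, *Six3os1* and *Six3* above all, are uncertain.

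Differential expression was computed from these counts with edgeR 4.0.16 in R 4.3.3 (filterByExpr, TMM with factors between 0.969 and 1.01, glmQLFit and glmQLFTest, Benjamini-Hochberg adjustment, threshold 0.05), with standard errors as the absolute log2 fold change over the square root of F. DESeq2 1.42.0, which the methods name, and limma 3.58.1 were alternatives, as were other scalings, filters, thresholds, a replicate block and leaving out each library. FPKM was computed from the counts, the gene lengths in the file and the total counts. Exact permutation tests over samples, two-sided, compared ratios and shares. The fit was tested on simulated counts with known changes. The members' coordinates in the file equal those of GENCODE vM21, from which sequences were read. The members and lists were chosen with earlier results of these data known. All 10 members, all listed neighbours and up to 4 called genes with the largest change of each other list were to be named, of which some are given by count only and the bipolar cell list is not reported here. The floor of 3 counts covers counting error only.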

Additional observations from a re-analysis of the deposited data

Results flagged for a closer look

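Of 36 sets of 4 libraries screened for a library far from the other 3 (Dixon's test at 95%), 4 had one, where chance gives about 1.8. *Malat1* in control replicate 1 had a log2 CPM of 10.4, against 12.2 in the other controls. The 10 lncRNA genes together took 0.408% of the counts in control replicate 1 and 0.879% to 0.931% in the other controls. The share of counts of mitochondrial genes was 2.38% in control replicate 1 and 1.69% to 1.76% in the other controls. *Miat* in *Mettl3*-CKO replicate 2 had a log2 CPM of 11.1, against 10.7 in the other *Mettl3*-CKO libraries. So 3 of the 4 values came from the same library. The values of *Malat1* and of the 10 genes together are not separate observations, since *Malat1* is among the 10.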

How the results depend on the processing

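*Rmst* kept its call under every alternative run. *Six3os1* lost its call with the replicate number as a block (log2 fold change 0.45, edgeR adjusted p = 0.0626), without control replicates 1 and 4 together, a choice made after seeing the data, and at an adjusted p under 0.01 or at least 1.5-fold, so 1 gene was called higher in each of these 4 settings, and 1 or 2 when 1 library was left out. Genes called lower numbered 0 to 1 when 1 library was left out, the 1 being *Malat1*. *Malat1* reversed to 0.054 with the block, *Rian* to 0.072 and *Mirg* to 0.025 with voom, and to 0.095 and 0.014 without control replicates 1 and 4, none of them called. Leaving out 1 library gave ranges of -0.35 to 0.051 for *Malat1*, -0.074 to 0.077 for *Rian*, -0.10 to 0.032 for *Mirg* -0.31 to 0.030 for *Miat*, -0.49 to -0.14 for *Neat1*, -0.47 to -0.069 for *Pantr1*, -0.20 to -0.067 for *Meg3* and 0.067 to 0.13 for *Tug1*. It moved the difference in log2 ratio between -0.72 and -0.036 for *Neat1* to *Malat1*, between 0.042 and 0.28 for *Rian* to *Meg3*, between -0.0068 and 0.20 for *Mirg* to *Meg3* and between -0.48 and 0.022 for *Pantr1* to *Pou3f3*, and the difference in the share of counts between -0.15 and 0.028 percentage points. Why was not tested. Paired by replicate number, the *Six3os1* to *Six3* ratio differed by 0.33 with p = 0.125, the smallest an exact sign-flip test of 4 pairs allows. Deviations of same-numbered libraries correlated at -0.11, 0.22, -0.11 and 0.25, and those of differently numbered libraries at between -0.23 and 0.26. So few values cannot settle whether the numbers pair any of the libraries. Over all genes, 1168 higher and 729 lower calls became 2142 and 1568 with voom, 439 and 147 at an adjusted p under 0.01, 589 and 339 at 1.5-fold or more, and 509 to 1882 and 185 to 1289 when 1 library was left out. Counts were low for *Pantr1*, *Neat1* and *Mirg*, at 12 to 29, 87 to 179 and 140 to 239 per library. Depth was not the only limit. The standard errors of *Malat1* (0.29) and *Miat* (0.22), with far more counts, were at least as large as that of *Neat1* (0.22).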
